A study of Homo sapiens with 8 samples.

Results

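The leucine tRNAs that read the four-codon box of leucine carry the anticodons AAG, CAG and TAG (tRNA-Leu-AAG, tRNA-Leu-CAG and tRNA-Leu-TAG). They were chosen by name, as all sense-strand crosslink sites on references of these 3 isoacceptors, and comprised 21 of the 413 tRNA genes named in the files and 9 of the 252 tRNA references. tRNA-Leu-AAG had 9 genes on 4 references, tRNA-Leu-CAG had 9 genes on 2 references, and tRNA-Leu-TAG had 3 genes on 3 references. The data were individual-nucleotide crosslinking and immunoprecipitation (iCLIP) counts, which place the contact of a protein on RNA at single nucleotides. The cells were Flp-In T-Rex 293, an established human embryonic kidney line, with a tetracycline-inducible 3xFLAG-tagged DUS2L or DUS1L. The 4 groups of 2 libraries were DUS2L with 100 µM 5-chlorouridine (5-ClUrd), DUS2L untreated, DUS1L with 100 µM 5-ClUrd and DUS1L untreated. All groups had 1 µg/mL tetracycline for 12 h before the medium was exchanged and for 12 h after it, so that a tagged and induced enzyme was present in the untreated groups too. The series describes the replicates as biological.

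DUS1L and DUS2L are dihydrouridine synthases, flavin enzymes that reduce uridine to dihydrouridine, a base that in tRNA sits chiefly in the D loop. Their substrate positions within that loop differ. 5-ClUrd is a uridine analogue that cells can build into RNA and that can hold such an enzyme on its target base. Leucine tRNAs belong to the type II tRNAs, which have a long variable arm. The isoacceptors of the four-codon box decode the codons that begin with CU, and the other leucine tRNAs, tRNA-Leu-CAA and tRNA-Leu-TAA, decode the codons that begin with UU.

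All 21 genes were found by symbol in RefSeq's gene table for GRCh38.p14, in which each tRNA-Leu-AAG and tRNA-Leu-TAG gene spans 82 nt and each tRNA-Leu-CAG gene spans 83 nt. Of the tRNA-Leu-CAG genes 6 lie on chromosome 1, from TRL-CAG1-1 at chr1:161441533-161441615 to TRL-CAG1-6 at chr1:161530342-161530424. The 3 tRNA-Leu-TAG genes lie apart, with TRL-TAG1-1 at chr17:8120314-8120395, TRL-TAG2-1 at chr14:20625370-20625451 and TRL-TAG3-1 at chr16:22195711-22195792. The tRNA-Leu-AAG genes lie on chromosomes 5, 6, 14 and 16, among them TRL-AAG2-3 at chr14:20610132-20610213 and TRL-AAG4-1 at chr6:28478623-28478704. Several genes share 1 reference, and near-identical copies share reads, so counts are given per isoacceptor. Sites were found at positions 2 to 65 of tRNA-Leu-AAG, 20 to 74 of tRNA-Leu-CAG and 2 to 70 of tRNA-Leu-TAG. No library held a tRNA-Leu-CAG site before position 20. Position 1 is the 5′-terminal base of a reference, and positions were not converted to the standard numbering of tRNA. Whether the deposited position is shifted from the end of the cDNA is not given in the sources used here.

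Libraries held 370878 and 363024 sense counts for DUS2L with 5-ClUrd, 130011 and 172078 for DUS2L untreated, 824657 and 542521 for DUS1L with 5-ClUrd, and 144322 and 7369 for DUS1L untreated. The second untreated DUS1L library was therefore thin, and 3 counts in it equal 0.0407% of its total. Names of the deposited site files differ between the enzymes, since those of DUS2L mention a first mapping to non-coding RNAs. A difference in how the files were made cannot be told apart from the enzyme in the comparisons between enzymes. Within a group, fewer tRNA molecules and fewer contacts per molecule cannot be told apart either.

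The 3 isoacceptors made up a far larger share of DUS2L libraries than of DUS1L libraries. Together they took 7.61% and 5.64% of sense counts in DUS2L 5-ClUrd libraries and 10.2% and 12.3% in untreated DUS2L libraries. In DUS1L 5-ClUrd libraries they took 0.172% and 0.253%, and in untreated DUS1L libraries 0.0132% and 0.0407%. No DUS2L library overlapped a DUS1L library. The last 2 shares rest on 19 and 3 counts. Intervals and floors in these results cover counting error only.

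tRNA-Leu-CAG was the most abundant of the 3 in both DUS2L groups by mean share, at 2.88 ± 1.12% with 5-ClUrd and 5.67 ± 0.944% untreated (SD, n = 2 each). Single libraries gave it 3.67% and 2.09% with 5-ClUrd, against 5.01% and 6.34% untreated. tRNA-Leu-TAG took 2.21% and 2.34% of DUS2L 5-ClUrd libraries, against 3.46% and 3.83% of untreated DUS2L libraries. For both isoacceptors the untreated libraries lay above both treated ones. tRNA-Leu-AAG took 1.73% and 1.21% with 5-ClUrd, against 1.73% and 2.16% untreated, and one treated library slightly exceeded one untreated library. Among 55 families (50 of tRNA by amino acid and anticodon, 5 of rRNA), tRNA-Leu-CAG ranked 12 by mean share with 5-ClUrd, and 6 untreated. The spread between replicates of tRNA-Leu-CAG with 5-ClUrd overlaps the level of tRNA-Leu-TAG, so these neighbours are not ordered beyond their spread in that group.

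In DUS1L libraries tRNA-Leu-TAG and tRNA-Leu-CAG stood close together and tRNA-Leu-AAG was lowest. tRNA-Leu-TAG had 695 and 643 counts with 5-ClUrd (0.0843% and 0.119%), against 13 and 1 untreated. tRNA-Leu-CAG had 621 and 636 counts with 5-ClUrd (0.0753% and 0.117%), against 5 and 2 untreated. tRNA-Leu-AAG had 106 and 93 counts with 5-ClUrd (0.0129% and 0.0171%), against 1 and 0 untreated. Within the 3 isoacceptors, tRNA-Leu-AAG held 22.7% and 21.5% of counts in DUS2L 5-ClUrd libraries (exact 95% intervals 22.2 to 23.2% and 20.9 to 22.1%). It held 7.45% and 6.78% in DUS1L 5-ClUrd libraries (6.14 to 8.94% and 5.51 to 8.24%).

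**Figure D1:**
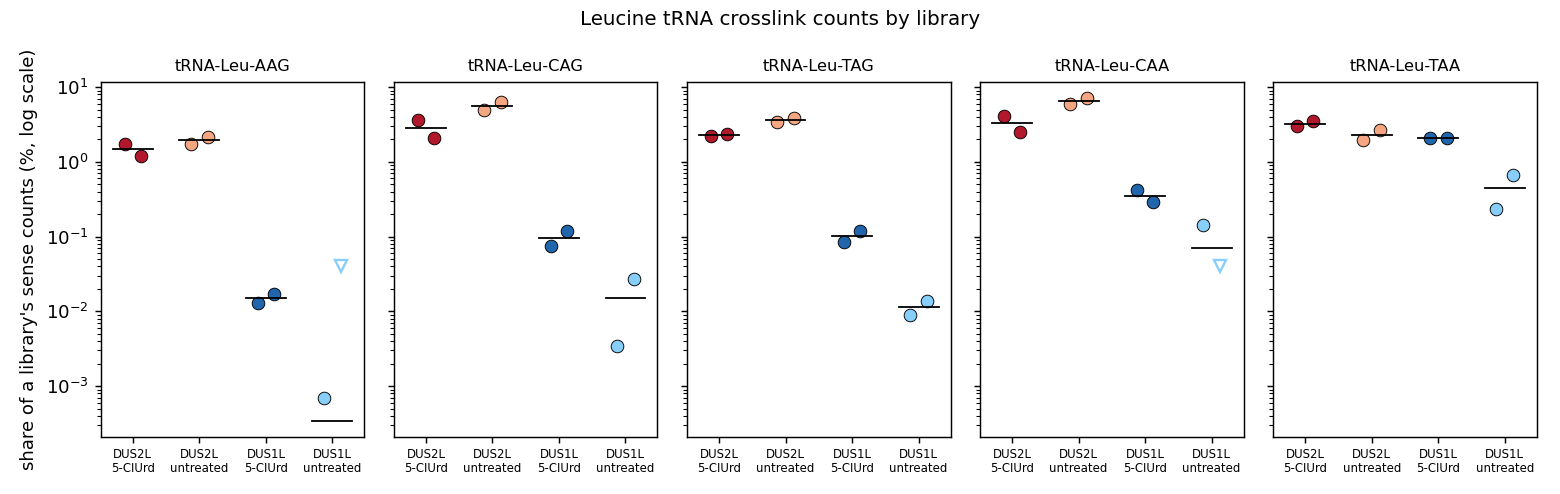
Share of a library's sense counts (percent, log scale) on each leucine isoacceptor, by group; points are libraries, bars are group means of 2 libraries and open triangles mark the share that 3 counts would give in a library with none. The 3 isoacceptors of the four-codon box lie at 1.21% or above in every DUS2L library and at 0.119% or below in every DUS1L library, whereas tRNA-Leu-TAA is at 2.08% in both DUS1L 5-ClUrd libraries.

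With 5-ClUrd in both, all 3 isoacceptors were higher in DUS2L than in DUS1L cells. tRNA-Leu-AAG differed most, by 6.62 ± 0.43 on the log2 scale (SE, 98-fold, adjusted p = 8.34e-06 in edgeR's quasi-likelihood test). tRNA-Leu-CAG was higher by 4.90 ± 0.62 (29.9-fold, adjusted p = 0.000235 in edgeR) and tRNA-Leu-TAG by 4.49 ± 0.39 (22.4-fold, adjusted p = 2.92e-05 in edgeR). For each of them both DUS2L libraries lay above both DUS1L libraries. Across the 55 families 65.5% were called at an adjusted p of 0.05 in this comparison, 38.2% as higher in DUS2L, and the median log2 fold change was 0.49. Of the leucine tRNAs of the other box, tRNA-Leu-CAA was higher in DUS2L by 3.24 ± 0.76 (adjusted p = 0.00639 in edgeR). tRNA-Leu-TAA, at 2.98% and 3.48% in DUS2L against 2.08% in both DUS1L libraries, did not pass the threshold (0.64 ± 0.49, adjusted p = 0.281 in edgeR). The share of all leucine counts that lay on the four-codon box was 51.7% and 48.4% in DUS2L 5-ClUrd libraries, against 6.47% and 9.65% in DUS1L 5-ClUrd libraries.

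Untreated libraries of the enzymes differed in the same direction, with few DUS1L counts behind it. Over both libraries, untreated DUS2L had 5969 tRNA-Leu-AAG, 17424 tRNA-Leu-CAG and 11085 tRNA-Leu-TAG counts. Untreated DUS1L had 1, 7 and 14. The ratio of rates for tRNA-Leu-TAG was 398 (exact 95% interval 237 to 727), and for tRNA-Leu-CAG it was 1250 (607 to 3109). For tRNA-Leu-AAG the single count leaves a ratio of 2997 with an interval from 538 to 118406. All 3 passed edgeR's test, in a comparison that called 89.1% of 55 families (47.3% as higher in DUS2L, 41.8% as lower).

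Within DUS2L cells, 5-ClUrd went with lower shares of tRNA-Leu-CAG and tRNA-Leu-TAG. tRNA-Leu-CAG fell by 0.98 on the log2 scale (SE 0.31, adjusted p = 0.0245 in edgeR), which puts it at 0.507 times its untreated level. tRNA-Leu-TAG fell by 0.68 (SE 0.21, adjusted p = 0.0211 in edgeR), to 0.624 times. tRNA-Leu-AAG had a log2 fold change of -0.40 ± 0.26, which missed the threshold (adjusted p = 0.178 in edgeR). In this comparison 76.4% of the 55 families were called, 29 as higher and 13 as lower (23.6%). That split was 19 higher and 21 lower with TMM factors, and 18 and 21 with DESeq2's size factors. The median family had a log2 fold change of 0.86, and the values minus that median were -1.26 for tRNA-Leu-AAG, -1.84 for tRNA-Leu-CAG and -1.54 for tRNA-Leu-TAG. With TMM factors, which moved the median by -0.65, they were -1.26, -1.83 and -1.54. In the other leucine box, tRNA-Leu-CAA fell by 0.96 (adjusted p = 0.0196 in edgeR), whereas tRNA-Leu-TAA, at 0.49 ± 0.24, did not pass.

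The calls depended on single libraries, on the fit and on the most crowded sites, and the sizes varied too. With 1 library left out tRNA-Leu-CAG lay between -1.44 and -0.63, and tRNA-Leu-TAG between -0.75 and -0.60. tRNA-Leu-TAG had -0.75 without the first untreated DUS2L library and -0.60 without the second, and was not called in either case (adjusted p = 0.196 and 0.299 in edgeR); tRNA-Leu-CAG lost its call without the second (-0.80, adjusted p = 0.169). In one fit of all 8 libraries both had the same log2 fold changes and neither was called (adjusted p = 0.153 for tRNA-Leu-CAG and 0.129 for tRNA-Leu-TAG in edgeR). The single site with the highest count in a DUS2L 5-ClUrd library reached 1428 and 1436, against 1314 and 1348 in untreated DUS2L libraries, although the treated libraries held more counts in all; the part of this in the falls was not tested, and without sites above 500 counts neither isoacceptor was called (-0.72 and -0.44).

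In DUS1L cells all 3 isoacceptors had larger shares with 5-ClUrd, against a baseline of 22 counts. tRNA-Leu-TAG rose by 3.37 ± 0.84 on the log2 scale (adjusted p = 0.0347 in edgeR), and its ratio of rates was 10.6 (exact 95% interval 6.30 to 19.4). tRNA-Leu-AAG was also called (4.46 ± 1.13, adjusted p = 0.0347 in edgeR), with a ratio of 22.1 and an interval from 3.92 to 876, since the untreated libraries held 1 count. tRNA-Leu-CAG, at 3.83 ± 1.20, missed the threshold (adjusted p = 0.0615 in edgeR). Of 53 families tested 24.5% were called (22.6% as higher, 1.89% as lower), and the median log2 fold change was 1.35. The 12 higher and 1 lower became 2 and 8 with TMM factors, and 1 and 9 with DESeq2's size factors. tRNA-Leu-AAG and tRNA-Leu-CAG, with 1 and 7 untreated counts, reached the minimum of 10 counts only through the treated libraries. With TMM factors or DESeq2's size factors none of the 3 was called. Both calls were lost when either DUS1L 5-ClUrd library was left out, as were most calls over all families. TMM factors moved the median by -1.03.

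The effect of 5-ClUrd itself differed between the enzymes for all 3 isoacceptors in one fit of the 8 libraries. The log2 effect in DUS2L minus that in DUS1L was -4.84 ± 0.86 for tRNA-Leu-AAG (adjusted p = 0.00741 in edgeR). It was -5.12 ± 1.01 for tRNA-Leu-CAG (adjusted p = 0.0116 in edgeR) and -4.09 ± 0.59 for tRNA-Leu-TAG (adjusted p = 0.00508 in edgeR). Of 55 families 29.1% were called in this test, 6 as higher and 10 as lower, with a median of -0.31. With TMM factors 0 were called higher and 15 lower (median -1.36), and with DESeq2's size factors 4 and 15. tRNA-Leu-CAA and tRNA-Leu-TAA, at -2.82 and -1.81, did not pass (adjusted p = 0.0730 and 0.0841 in edgeR). The differences rest on the same 22 untreated DUS1L counts. The call of tRNA-Leu-AAG was lost without the first untreated DUS1L library (log2 -9.09). That of tRNA-Leu-CAG was lost without the second DUS1L 5-ClUrd library (-4.73). tRNA-Leu-TAG lay between -4.31 and -3.58 over the fits with 1 library left out. Without sites above 500 counts in any library, tRNA-Leu-TAG alone of the 3 was called. Sites were counted here by single reference and position. On the isoacceptors only DUS2L libraries held such sites, since no position of a single reference passed 380 counts in a DUS1L library.

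Position 27 carried more counts than any other position in most DUS2L libraries. On tRNA-Leu-AAG it held 27.4% and 16.2% of the isoacceptor's counts with 5-ClUrd, against 35.0% and 36.4% untreated. On tRNA-Leu-TAG it held 28.1% and 16.6% with 5-ClUrd, against 31.8% and 32.9% untreated. On tRNA-Leu-CAG it held 18.4% and 26.5% with 5-ClUrd, against 18.6% and 17.8% untreated, where position 38 was as high (22.3% and 17.8% untreated). In the second DUS2L 5-ClUrd library position 20 exceeded position 27 on tRNA-Leu-AAG, with 22.1%.

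Relative to the library total, position 27 fell with 5-ClUrd in DUS2L cells on all 3 isoacceptors. The log2 falls were 1.06 on tRNA-Leu-AAG, 0.75 on tRNA-Leu-CAG and 1.22 on tRNA-Leu-TAG (adjusted p = 0.00047, 0.00231 and 1.7e-07 in edgeR). Without the second treated library the log2 fold change of position 27 on tRNA-Leu-AAG was -0.56 and its call was lost. On reference 2 of tRNA-Leu-CAG this position held 1316 and 1109 counts with 5-ClUrd, in libraries whose highest single sites held 1428 and 1436. The highest sites of the smaller untreated libraries held 1314 and 1348, and the part of this in the falls was not tested. Over the 140 sites of the isoacceptors that had at least 10 counts, 7 were called higher and 19 lower (18.6% called). This was a smaller share than the 39.4% called among all 3582 sites tested (15.5% higher, 23.8% lower). Of the 140 sites 122 reached 10 counts in each group, 11 did so with 5-ClUrd only and 2 untreated only. Among the 26 called sites, position 13 of tRNA-Leu-AAG alone was under 10 counts in one group. The 556 higher and 854 lower calls over all sites became 815 and 611 with TMM factors. tRNA-Leu-AAG had 2 higher and 2 lower, tRNA-Leu-CAG 3 higher and 11 lower, and tRNA-Leu-TAG 2 higher and 6 lower. With TMM factors the 7 higher sites remained called and 5 of the 19 lower ones did, and the fall at position 27 was not called on any of the 3.

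The largest rise past the threshold was at position 13 of tRNA-Leu-AAG, in the D arm. It had 102 and 397 counts with 5-ClUrd, against 2 and 5 untreated, a log2 fold change of 4.88 ± 0.95 (adjusted p = 1.11e-05 in edgeR). Both treated libraries lay above both untreated ones, whose 7 counts in all are under the minimum of 10, so that this site was tested through its treated counts. Position 14 beside it had 32 and 127 counts with 5-ClUrd, against 4 and 6 untreated (2.71 ± 1.07, adjusted p = 0.0334 in edgeR). Without the second treated library the value at position 14 was 1.38 and its call was lost. At position 15, the 677 and 848 counts with 5-ClUrd, against 99 and 265 untreated, missed the threshold (0.85 ± 0.41, adjusted p = 0.0829 in edgeR).

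On tRNA-Leu-CAG the rises lay at 3 adjacent positions just 3′ of position 28. Position 29 had 934 and 240 counts with 5-ClUrd, against 31 and 106 untreated (1.89 ± 0.52, adjusted p = 0.00238 in edgeR). Position 30 had 672 and 126 counts with 5-ClUrd, against 13 and 40 untreated (2.68 ± 0.66, adjusted p = 0.000734 in edgeR). Position 31 had 235 and 31 counts with 5-ClUrd, against 6 and 15 untreated (2.41 ± 0.94, adjusted p = 0.0303 in edgeR). The first treated library was by far the higher one at each of them. At position 31 the second treated library, with 0.00854% of its counts, lay just below the second untreated one, with 0.00872%, so the groups overlapped. Without the first treated library none of the 3 positions was called (log2 0.62, 1.04 and 0.34 for positions 29, 30 and 31; adjusted p = 0.442, 0.318 and 0.836 in edgeR). Position 28 next to them had a negative log2 fold change, with 1308 and 268 counts with 5-ClUrd, against 388 and 972 untreated (-1.02 ± 0.31, adjusted p = 0.00597 in edgeR). Here too the groups overlapped, since the first treated library gave it 0.353% of its counts and the first untreated one 0.298%. Its value was -2.55 without the first treated library and -0.29, not called, without the second (adjusted p = 0.386 in edgeR).

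On tRNA-Leu-TAG positions 10 and 12 rose. Position 10 had 443 and 889 counts with 5-ClUrd, against 101 and 87 untreated (1.51 ± 0.47, adjusted p = 0.00754 in edgeR). Position 12 had 70 and 299 counts with 5-ClUrd, against 16 and 16 untreated (2.23 ± 0.84, adjusted p = 0.0247 in edgeR). Here the second treated library was the higher one, and without it neither position was called (0.90 and 0.81, adjusted p = 0.141 and 0.509 in edgeR). Nearby, position 15 fell, with 580 and 947 counts with 5-ClUrd, against 850 and 1126 untreated (-1.65 ± 0.28, adjusted p = 2.18e-07 in edgeR), as did positions 14, 16 and 17 by 1.27, 1.91 and 2.10. Position 14 lost its call without the first treated library (-0.61), and position 17 without the second (-1.80).

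The largest fall past the threshold was at position 51 of tRNA-Leu-CAG, in the part of the reference that holds the long variable arm. It had 185 and 103 counts with 5-ClUrd, against 471 and 840 untreated, a log2 fold change of -3.44 ± 0.39 (adjusted p = 3.6e-16 in edgeR). Treated and untreated libraries did not overlap even before scaling. Positions 50, 38 and 37 fell by 2.77, 1.49 and 1.35 (adjusted p = 0.00548, 7.54e-10 and 8.85e-05 in edgeR). Position 68, towards the 3′ end, had 947 and 1032 counts with 5-ClUrd, against 751 and 1095 untreated, and fell by 1.17 relative to the library totals (adjusted p = 0.0003 in edgeR).

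**Figure D2:**
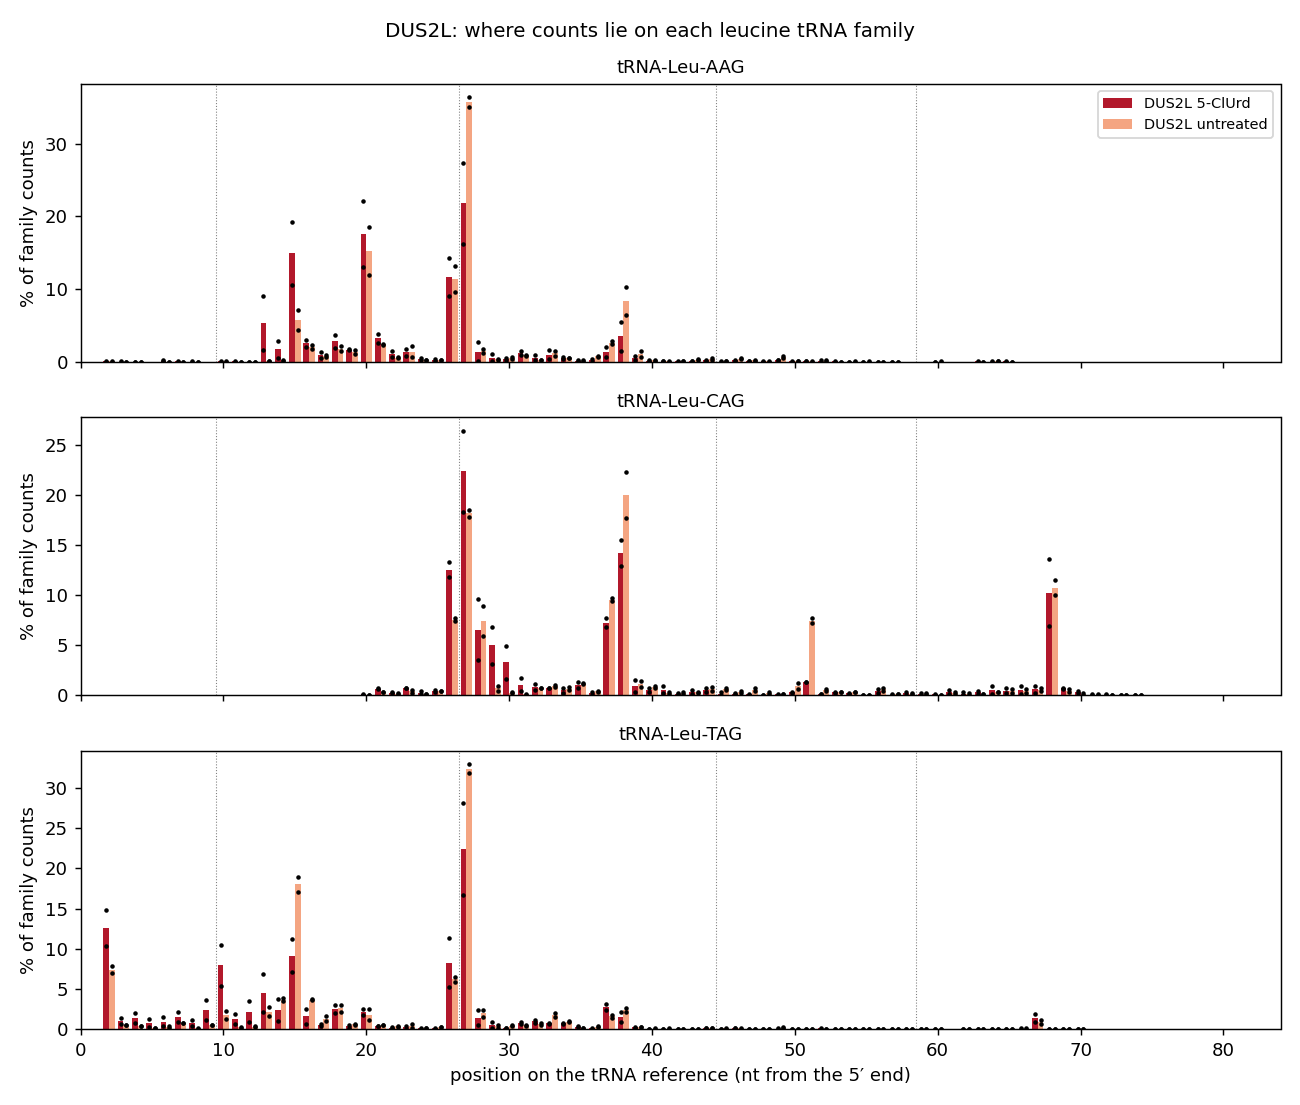
Share of each isoacceptor's counts at each position (percent, x axis in nt from the 5′ end of the reference) in DUS2L cells with 5-ClUrd (dark red) and untreated (light); bars are means of 2 libraries, dots are libraries and dotted lines bound the windows described in the text. Position 27 is high in both groups, positions 13 of tRNA-Leu-AAG and 29 to 31 of tRNA-Leu-CAG are higher with 5-ClUrd, and position 51 of tRNA-Leu-CAG is higher untreated (1.36% with 5-ClUrd, 7.47% untreated).

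**Figure D3:**
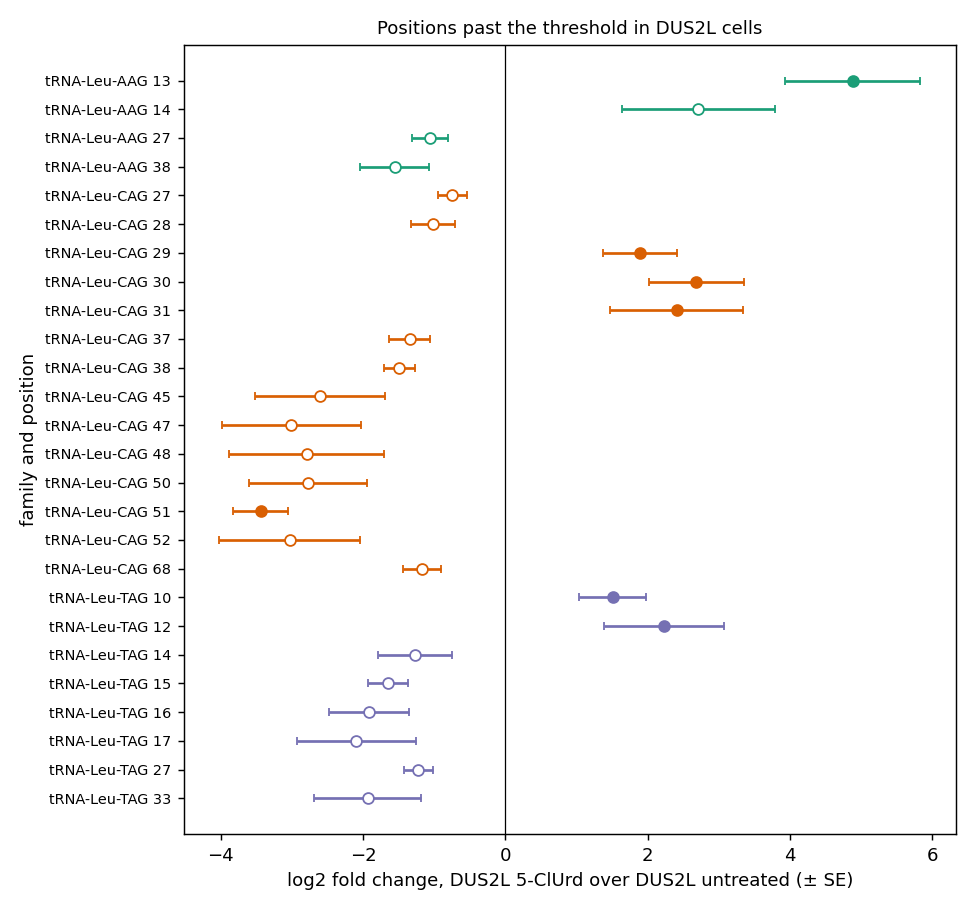
Log2 fold change (DUS2L 5-ClUrd over DUS2L untreated, relative to the library total) with its SE for the 26 positions past the threshold; filled points also changed relative to the other positions of their own isoacceptor. The 7 rises lie at positions 10 to 14 and 29 to 31.

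Change relative to the other positions of the same isoacceptor was tested as well, a test added after the data had been seen. In DUS2L cells 6 sites rose and 1 fell among 140 (5% called), a share near the 4.41% of 1927 tRNA sites called (3.43% higher, 0.986% lower). They were position 13 of tRNA-Leu-AAG (log2 5.29), positions 29, 30 and 31 of tRNA-Leu-CAG (2.87, 3.66 and 3.39), positions 10 and 12 of tRNA-Leu-TAG (2.19 and 2.91) and, as the fall, position 51 of tRNA-Leu-CAG (-2.46), with adjusted p between 0.00193 and 0.0478 in edgeR's diffSpliceDGE. Position 27 was not called in this test on any of the 3 (-0.65 on tRNA-Leu-AAG, 0.23 on tRNA-Leu-CAG and -0.54 on tRNA-Leu-TAG). Leaving out either untreated DUS2L library ended the calls on the isoacceptors in both tests, as it did for nearly all sites of the series. This loss is therefore not particular to the isoacceptors. The 6 rises and the fall of the second test kept their sign whichever DUS2L library was left out. Without the first treated library 5 of the 6 rises remained called in the second test, all but position 31 of tRNA-Leu-CAG (1.78), and without the second treated library all but position 12 of tRNA-Leu-TAG (1.53).

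Summed over windows of the reference, counts with 5-ClUrd lay more often in the 5′ part. On tRNA-Leu-AAG positions 10 to 26 held 53.6% and 76.9% with 5-ClUrd, against 47.5% and 39.6% untreated. On tRNA-Leu-CAG the same window held 16.3% and 14.0% with 5-ClUrd, against 9.25% and 9.08% untreated. On tRNA-Leu-TAG that window overlapped between the groups (38.9% and 48.6% with 5-ClUrd, 46.6% and 41.6% untreated), and positions 1 to 9 held 19.2% and 23.4% with 5-ClUrd, against 9.86% and 10.5% untreated. Positions 45 to 58 of tRNA-Leu-CAG held 3.40% and 4.12% with 5-ClUrd, against 11.8% and 13.8% untreated. Its positions 59 to 74 overlapped between the groups (9.08% and 20.6% with 5-ClUrd, 14.3% and 14.2% untreated). So did its positions 27 to 44 (71.3% and 61.4%, against 64.6% and 62.9%). An exact two-sided permutation test of 2 against 2 libraries cannot go below p = 0.333, the value of each window whose groups did not overlap. The share of such windows over all tRNA families was not worked out. The other leucine box had like values in part of these windows. Positions 10 to 26 of tRNA-Leu-CAA held 15.5% and 18.9% with 5-ClUrd, against 10.7% and 9.30% untreated. Positions 1 to 9 of tRNA-Leu-TAA held 18.2% and 24.3%, against 12.6% and 9.13%. The groups overlapped at positions 10 to 26 of tRNA-Leu-TAA (37.0% and 31.6%, against 38.0% and 32.4%). They also overlapped at positions 1 to 9 of tRNA-Leu-CAA (5.77% and 3.65%, against 2.85% and 3.76%).

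**Figure D4:**
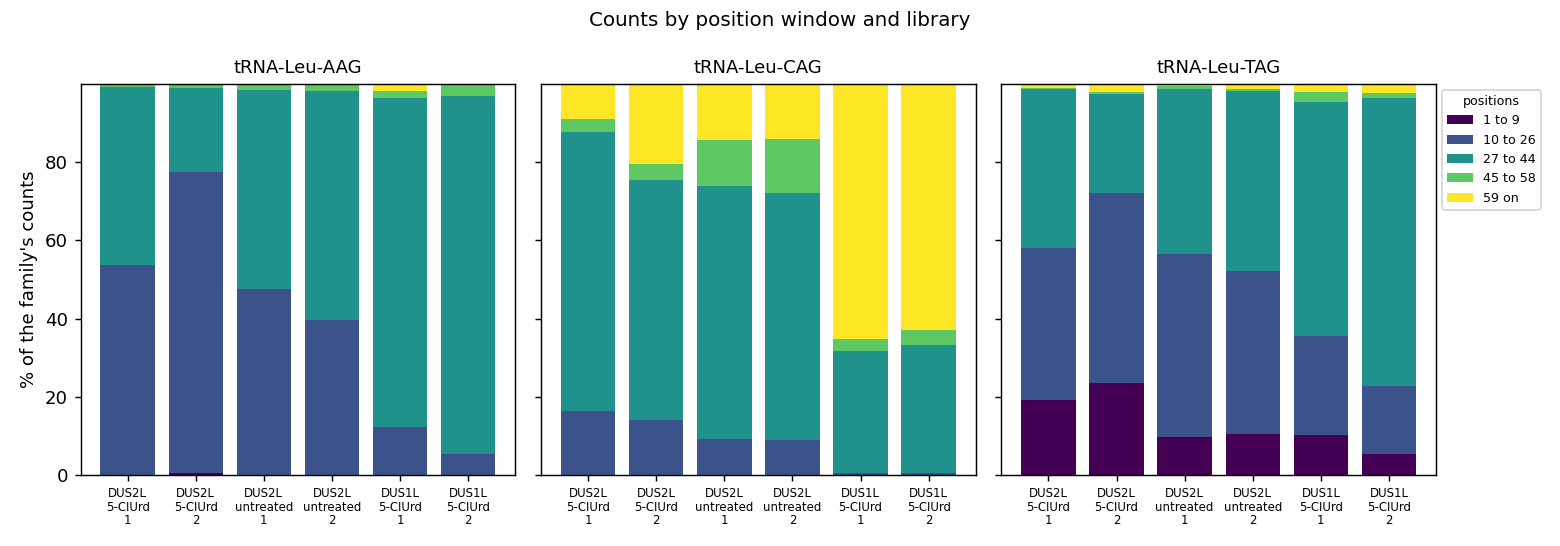
Share of each isoacceptor's counts (percent) in 5 windows of positions, 1 bar per library for DUS2L 5-ClUrd, DUS2L untreated and DUS1L 5-ClUrd; untreated DUS1L libraries, with 19 and 3 counts, are left out. Positions from 59 on hold 20.6% or less of tRNA-Leu-CAG in any DUS2L library, against 65.2% and 63.1% in DUS1L 5-ClUrd libraries.

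With 5-ClUrd in both, the leading DUS1L position of each isoacceptor held a smaller share of its counts in DUS2L cells. These positions were picked by their DUS1L counts. tRNA-Leu-AAG had 27.4% and 16.2% of its counts at position 27 in DUS2L cells, against 72.6% and 84.9% in DUS1L cells. tRNA-Leu-TAG had 28.1% and 16.6% at position 27 in DUS2L cells, against 51.4% and 63.3% in DUS1L cells. tRNA-Leu-CAG had 6.96% and 13.6% at position 68 in DUS2L cells, from 947 and 1032 counts, against 60.9% and 59.7% in DUS1L cells, from 378 and 380 counts. No DUS2L 5-ClUrd library overlapped a DUS1L 5-ClUrd library at these positions. Relative to the other positions of the same isoacceptor, however, position 27 was not called between the enzymes on tRNA-Leu-AAG or tRNA-Leu-TAG. The log2 values were -1.85 and -1.40 (adjusted p = 0.110 and 0.162 in edgeR's diffSpliceDGE).

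Of the 141 sites that had at least 10 counts over the 8 libraries, 121 were under 10 counts in DUS1L 5-ClUrd libraries. Nearly all of them entered the test through their DUS2L counts, which favours the direction higher in DUS2L. Their number of calls therefore gives no support to a direction. The other 20 sites, set apart after the data had been seen, had at least 10 counts in DUS1L 5-ClUrd libraries. Relative to library totals 19 of the 20 were higher in DUS2L, against 41.9% of 4424 sites called (22.9% higher, 19.0% lower). Their log2 fold changes lay between 2.22 ± 0.67 at position 68 of tRNA-Leu-CAG (adjusted p = 0.00386 in edgeR) and 7.77 at position 26 of tRNA-Leu-AAG. Position 52 of tRNA-Leu-TAG, with 18 counts in DUS2L and 10 in DUS1L, missed the threshold (1.74, adjusted p = 0.265 in edgeR). Relative to the other positions of the same isoacceptor, 1 of the 20 was called, against 13.5% of 2450 sites (5.10% higher, 8.41% lower). Position 68 of tRNA-Leu-CAG was lower in DUS2L by this measure (-2.68, adjusted p = 0.0266 in edgeR's diffSpliceDGE). With 1 library left out its value lay between -3.11 and -2.15. The call was lost without either DUS1L 5-ClUrd library and without the first DUS2L 5-ClUrd library. Sites of reference 2 of tRNA-Leu-CAG ended at position 50, and the share of that reference differed between the enzymes. The part of this in the value at position 68 was not tested.

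Positions with many DUS2L counts and almost none in DUS1L are given here as counts, since DUS2L alone carried them past the minimum. On tRNA-Leu-CAG, position 26 had 1815 and 895 counts in DUS2L, against 4 and 3 in DUS1L. On tRNA-Leu-AAG, position 15 had 677 and 848 counts in DUS2L, against 1 and 0 in DUS1L. On tRNA-Leu-TAG, position 10 had 443 and 889 counts in DUS2L, against 4 and 4 in DUS1L. The DUS1L libraries held fewer counts on each isoacceptor as a whole.

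**Figure D5:**
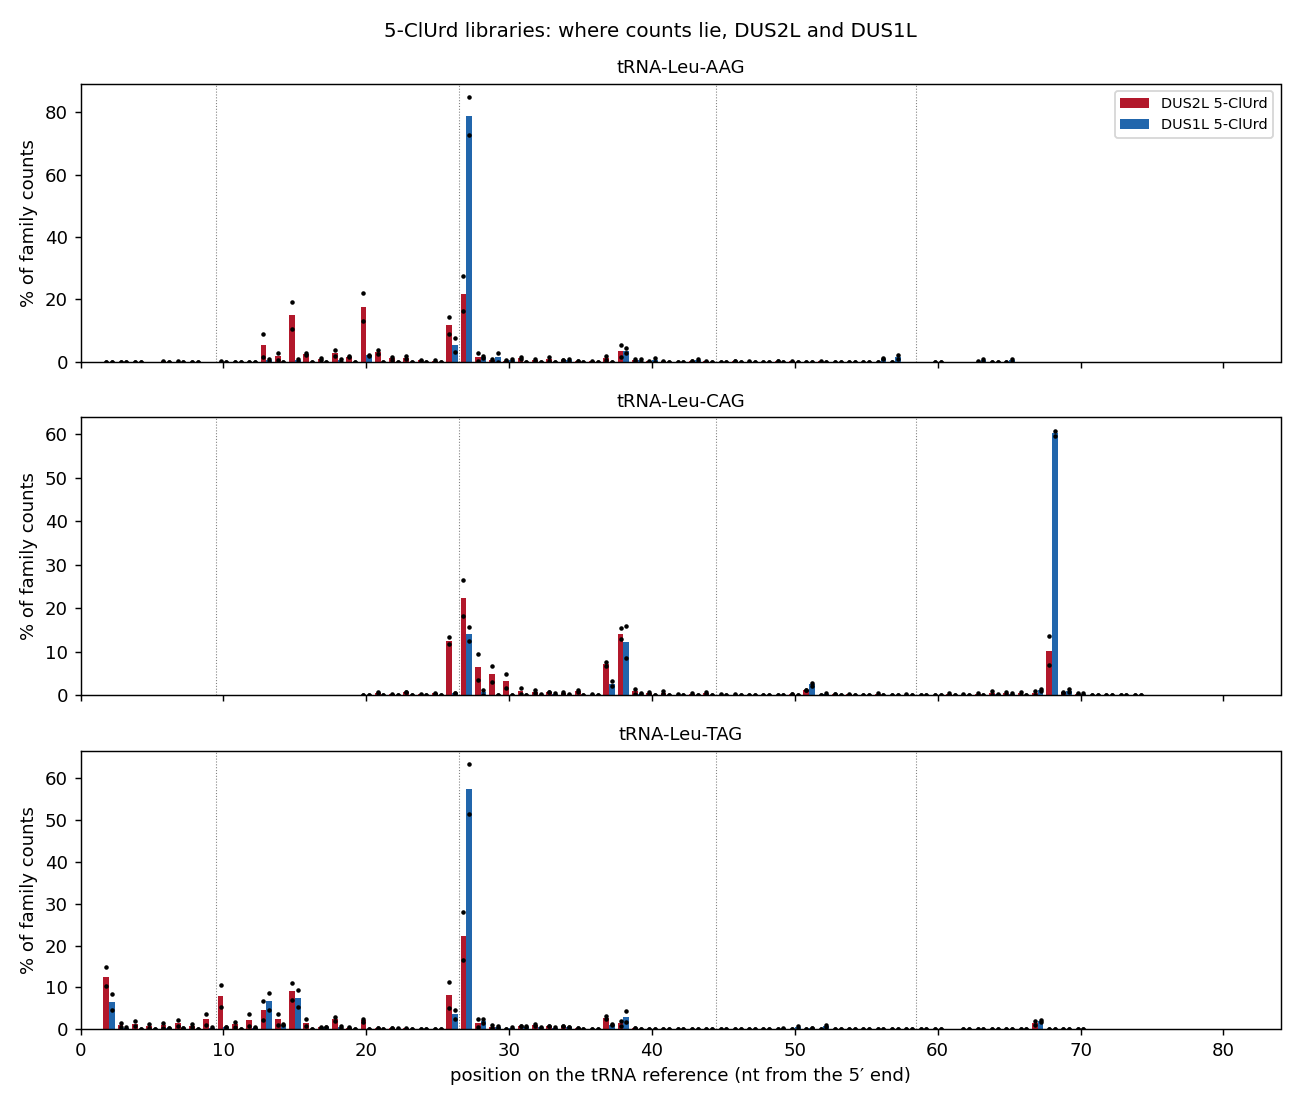
Share of each isoacceptor's counts at each position (percent, x axis in nt from the 5′ end of the reference) with 5-ClUrd, in DUS2L (red) and DUS1L (blue) cells; bars are means of 2 libraries and dots are libraries. DUS1L counts concentrate at position 27 of tRNA-Leu-AAG and tRNA-Leu-TAG and at position 68 of tRNA-Leu-CAG, where the mean is 60.3%, against 10.3% in DUS2L.

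In DUS1L cells 4 of the 20 sites tested passed the threshold as higher with 5-ClUrd, where 28.3% of 2132 sites were called (26.8% higher, 1.50% lower). All 20 reached 10 counts in the treated libraries, and none had over 6 counts untreated, so they entered the test through the group in which they could be called higher, and their number gives no support to a direction. Over all sites the 572 higher and 32 lower calls became 283 and 110 with TMM factors. At position 27, tRNA-Leu-AAG had 77 and 79 counts with 5-ClUrd, against 0 and 0 untreated, at least 5.77-fold higher when 3 counts over the group are taken as the floor. tRNA-Leu-CAG had 98 and 79 there, against 0 and 0, at least 6.55-fold higher. tRNA-Leu-TAG had 357 and 407, against 6 and 0, a ratio of rates of 14.1 (exact 95% interval 6.46 to 38.6). Position 2 of tRNA-Leu-TAG had 59 and 30, against 0 and 0, at least 3.29-fold higher. Adjusted p-values were between 0.0222 and 0.029 in edgeR. Position 68 of tRNA-Leu-CAG, with 378 and 380 counts with 5-ClUrd against 2 and 2 untreated, missed the threshold (adjusted p = 0.0833 in edgeR). Leaving out the first untreated DUS1L library ended these calls, and most calls over all sites were lost as well. With TMM factors position 27 of tRNA-Leu-AAG and of tRNA-Leu-CAG remained called and that of tRNA-Leu-TAG did not (adjusted p = 0.0747 in edgeR). Relative to the other positions of their isoacceptor, none of the 20 sites was called in edgeR's diffSpliceDGE and none had an unadjusted p under 0.05, where 6.46% of 1920 tRNA sites were called (5.52% as higher, 0.938% as lower).

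The references of an isoacceptor did not contribute evenly. Of tRNA-Leu-CAG counts, reference 1, which stands for 7 genes, held 55.7% and 60.3% in DUS2L 5-ClUrd libraries, 68.7% and 67.7% in untreated DUS2L libraries, and 92.3% and 92.0% in DUS1L 5-ClUrd libraries. Of tRNA-Leu-AAG counts, reference 4, a single gene (TRL-AAG4-1), held 33.9% and 65.4% in DUS2L 5-ClUrd libraries, against 36.9% and 35.7% in untreated ones. Reference 1 of tRNA-Leu-AAG held 16.3% and 8.38% with 5-ClUrd, against 3.29% and 2.39% untreated, and its sites ended at position 34. Of tRNA-Leu-TAG counts, reference 3 (TRL-TAG3-1) held 53.7% and 76.5% with 5-ClUrd, against 66.0% and 63.2% untreated in DUS2L cells, and 87.2% and 86.0% in DUS1L cells with 5-ClUrd. The treated DUS2L replicates thus differed from each other in these shares by more than the untreated ones did for each isoacceptor. Reads that fit several near-identical references may have been split by the counting, so shares of single references are uncertain.

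In the authors' deposited peak lists the score of a peak is the summed count of its sites. On the 9 references, DUS2L 5-ClUrd libraries had 12 and 10 peaks, of which 9 were shared by at least 1 nt, untreated DUS2L libraries 13 and 14 (10 shared), and DUS1L 5-ClUrd libraries 9 and 6 (4 shared). Untreated DUS1L libraries had none. Peaks over position 27 were present on all 3 isoacceptors in each of the 4 DUS2L libraries. The highest score was 4043, for positions 26 to 30 of reference 2 of tRNA-Leu-CAG in the first DUS2L 5-ClUrd library. In the first DUS1L 5-ClUrd library the peak at positions 67 to 68 of reference 1 of tRNA-Leu-CAG scored 387, whereas the second had no tRNA-Leu-CAG peak although it held 380 counts at position 68.

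Across the 8 libraries, the families whose log2 share (in percent, plus 0.001) was most like that of the isoacceptors were tRNA-Asp-GTC for tRNA-Leu-AAG (Pearson r = 0.998) and for tRNA-Leu-TAG (0.995), and tRNA-His-GTG for tRNA-Leu-CAG (0.996). tRNA-Leu-AAG and tRNA-Leu-TAG were alike at 0.994. The 8 libraries fall into 4 groups by enzyme and treatment and differ in depth, and these correlations describe that pattern only.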

How the data were processed

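The authors deposited, per library, whole-number counts of crosslink sites by reference, position and strand, and peak lists scored by summed site counts (64 of 64 peaks on these references). STAR 2.7.0f and hg38 are named in the submitters' processing notes. The sources used here do not state how peaks were called, duplicates handled or reads with several matches counted. Columns were used as deposited, and antisense counts (0.298% to 1.27% of sense and antisense counts together) were left out.

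Sense counts were summed to 55 families and to isoacceptor sites (family and position). A feature needed 10 counts in the libraries of its fit. The test was the quasi-likelihood one of edgeR 4.0.16 (R 4.3.3), on libraries scaled to total sense counts, with Benjamini-Hochberg adjustment over all features and a threshold of 0.05. Each treatment effect was fitted on the enzyme's 4 libraries. Differences between enzymes came from a fit of all 8. SE is the log2 fold change over the square root of F. Window shares were compared by exact permutation tests. Use within an isoacceptor (diffSpliceDGE) was added after the data were seen.

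Every family and reference was named, with the 5 positions of highest treated share per family and enzyme and those past the threshold (the 10 of highest treated share where more passed). Position 52 of tRNA-Leu-TAG was named after its values were seen. The members and lists were chosen with earlier results of these data known.

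Alternatives were TMM, DESeq2 1.42.0 size factors and Wald test, count minima of 1 and 50, the replicate number as a block, one fit of 8 libraries, leaving out sites above 500 counts, references apart, and each library left out. The fits were tested on simulated data. No tRNA sequence was at hand, so none is printed.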

Additional observations from a re-analysis of the deposited data

Results flagged for a closer look

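The effect of 5-ClUrd on each of the 3 isoacceptors differed between DUS2L and DUS1L cells by the test of that difference in one edgeR fit. The log2 effect in DUS2L minus that in DUS1L was -4.84 for tRNA-Leu-AAG, -5.12 for tRNA-Leu-CAG and -4.09 for tRNA-Leu-TAG. Untreated DUS1L libraries, which enter each of these, held 22 counts on the isoacceptors, and the part of that thin baseline was not tested. The calls of tRNA-Leu-AAG and tRNA-Leu-CAG were each lost when a single DUS1L library was left out.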

How the results depend on the processing

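Only 2 libraries per group and 22 untreated DUS1L counts limit every DUS1L treatment value. Replicate numbers were taken as names, since no label ties them to a shared batch (correlation of deviations 0.212 in DUS2L, 0.103 in DUS1L). With the replicate block, DUS2L gave 1 of the 3 isoacceptors called (tRNA-Leu-CAG, at -1.02, lost its call, adjusted p = 0.0596 in edgeR), 852 sites and 4 higher member sites, against 2, 1410 and 7, and tRNA-Leu-CAG was called in DUS1L (3.54). In DUS1L none of the 3 was called with TMM factors (tRNA-Leu-AAG 3.39, tRNA-Leu-TAG 2.28) or DESeq2 size factors (3.09, 2.01). DESeq2's Wald test called 0 (tRNA-Leu-TAG 2.00, no adjusted p for tRNA-Leu-AAG). None was called without sites above 500 counts in any library (1.01, 3.43), with 4 families called in all, against 13. On the isoacceptors such sites were in DUS2L libraries only. In DUS2L tRNA-Leu-AAG became called with TMM factors (-1.05), DESeq2 size factors (-1.15) and the Wald test (-1.15). One fit of 8 libraries called 27 families in each enzyme, against 42 in DUS2L and 13 in DUS1L, with tRNA-Leu-CAG called in DUS1L (4.15) and 0 of the 3 in DUS2L (tRNA-Leu-CAG -0.98, tRNA-Leu-TAG -0.68). Without sites above 500 counts 0 of the 3 was called in DUS2L (tRNA-Leu-CAG -0.72, tRNA-Leu-TAG -0.44), and 1 of 3 in the difference of effects (tRNA-Leu-AAG -1.45, tRNA-Leu-CAG -3.42). The cause of these changes was not tested. For sites, TMM factors gave 393 calls and 2 higher member sites in DUS1L, against 604 and 4, and 5 lower member sites in DUS2L, against 19. Each reference taken apart, with more features tested, gave 1604 calls and 9 higher member sites in DUS1L. In DUS2L it gave 15 higher and 29 lower member sites. Between treated enzymes it gave 4122 calls and 238 member sites higher in DUS2L, against 1853 and 133. Those 133 were among 141 member sites tested, where 22.9% of all 4424 sites were called higher. Of the 141, 121 were under 10 counts in DUS1L 5-ClUrd libraries, and nearly all of these entered through DUS2L counts. The numbers 133 and 238 therefore give no support to a direction. Counting identical intervals only left 1 of 4 shared peaks in DUS1L 5-ClUrd libraries.

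Window differences in DUS2L, treated minus untreated in percentage points, shrank when each site was counted once, which removes the heights: tRNA-Leu-AAG 10 to 26 was 2.36, against 21.7; tRNA-Leu-CAG 10 to 26 was 0.911, against 5.94, and 45 to 58 was -1.01, against -9.02. tRNA-Leu-TAG turned to -1.27 from position 1, against 11.1, and to 0.0732 from position 27, against -11.1. Without sites above 500 counts the tRNA-Leu-CAG windows were 3.01 and -13.6.

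Signs that turned were of sites past no threshold. With TMM factors in DUS2L, position 20 of tRNA-Leu-AAG was 0.45 (against -0.23) and position 26 was 0.44 on tRNA-Leu-AAG (-0.28), 0.48 on tRNA-Leu-CAG (-0.22) and 0.45 on tRNA-Leu-TAG (-0.27). Leaving out 1 library in DUS2L, position 26 lay between -0.99 and 0.19 on tRNA-Leu-AAG, -0.80 and 0.19 on tRNA-Leu-CAG, and -0.89 and 0.16 on tRNA-Leu-TAG, whose position 13 lay between -0.74 and 0.97 and position 2 between -0.16 and 0.27. Position 15 of tRNA-Leu-TAG in DUS1L lay between -0.92 and 1.77, against 1.20.

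Leaving out 1 library at a time gave these lowest and highest values. In DUS1L, 1 to 35 families and 0 to 2 of the 3 were called (tRNA-Leu-AAG 4.24 to 9.10, tRNA-Leu-CAG 1.82 to 4.79, tRNA-Leu-TAG 2.90 to 3.54), with 103 to 866 sites and 0 to 9 higher member sites. In DUS2L, 26 to 46 families and 0 to 3 of the 3 were called (tRNA-Leu-AAG -0.68 to -0.17, tRNA-Leu-CAG -1.44 to -0.63, tRNA-Leu-TAG -0.75 to -0.60), with 0 to 854 sites, 0 to 8 higher and 0 to 31 lower member sites. The difference of effects called 5 to 28 families (tRNA-Leu-AAG -9.09 to -4.60, tRNA-Leu-CAG -5.76 to -2.80), and the treated enzymes 1087 to 1882 sites. Use within an isoacceptor called 47 to 368 sites in DUS1L, 2 to 256 in DUS2L (members 0 to 15 higher, 0 to 9 lower) and 6 to 641 between treated enzymes (members 0 to 19 higher, 0 to 4 lower). A lone library was assumed to vary like the other groups.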
